A study of Mus musculus with 8 samples.

Results

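The follicular helper genes Cxcr5, Bcl6, Il21, Il21r, Icos, Maf and Cd40lg were followed in sorted spleen cells of mice lacking Eaf2 on the Faslpr background. The 7 members were taken by gene symbol, all 7 were found among the 17384 genes of the table, and 6 passed the filter on low counts. Cd40lg did not, and its values are given separately.

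The 4 EAF2Faslpr libraries came from mice that the study's design calls Eaf2-/-Faslpr, and the 4 Faslpr libraries from Faslpr mice. Both groups carry the lpr allele of the death receptor gene Fas, with which mice accumulate T cells that stain for B220, the CD45 isoform otherwise found on B cells. Eaf2 encodes a partner of the ELL transcription elongation factors. The design text gives apoptosis signalling as the question. All libraries were made from B220+CD3+ spleen cells. The sources used here do not give age, sex, strain, the part of Eaf2 deleted or whether replicates were separate mice, and p-values thus reflect only how these libraries vary, which may be technical.

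T follicular helper cells are CD4 T cells that help B cells make antibody in germinal centres. The chemokine receptor CXCR5 draws them into the B cell follicle, the repressor BCL6 holds them in that fate, and MAF drives their cytokines. They act on B cells through the cytokine IL-21, which signals by the IL-21 receptor, through CD40 ligand, and after costimulation by ICOS. In lupus-prone mice such cells are known to promote autoantibodies. The sort named here was for B220 and CD3, not CD4. Cd4 averaged 98.4 CPM in EAF2Faslpr and 36.3 CPM in Faslpr libraries, beside 557.2 and 601.7 CPM for Cd3e. The levels given are thus of all sorted cells, and the part of CD4 T cells in them was not tested.

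The libraries held between 15563700 and 18640400 estimated reads, and 3 reads were worth between 0.161 and 0.193 CPM (estimated counts scaled to the size of each library). Eaf2 stood at 4.74 ± 1.05 CPM in EAF2Faslpr libraries and 25.5 ± 4.5 CPM in Faslpr libraries (SD of 4), with a log2 fold change of −2.43 (adjusted p = 2.9e-05). Over all genes 12.1% passed, 7.14% higher and 4.96% lower in EAF2Faslpr cells. All replicate pairs varied beyond counting error (chi-square per degree of freedom 9.46 to 36.7). B cell and neutrophil transcripts peaked in EAF2Faslpr replicate 3, with summed levels of 739.8 and 83.6 CPM.

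Of the 6 members tested, Il21 rose and Cxcr5 and Il21r fell in EAF2Faslpr cells, while Bcl6, Icos and Maf did not pass. That is 1 of 6 higher, beside 7.14% of all genes, and 2 of 6 lower, beside 4.96%. Il21 entered the test through its EAF2Faslpr libraries, the group where it was higher. Faslpr replicates 1 and 2, at 9.09 and 3.04 estimated reads, fell short of the filter on low counts. The 1 of 6 higher is thus favoured by that filter. Groups did not overlap for 4 of the 6, beside 17.7% of all genes: Bcl6 and Icos stood higher (9.71% of all genes) and Cxcr5 and Il21r lower (7.96%). Cxcr5 fell 1.52-fold and Il21r 1.25-fold, both genes of high level, whereas Il21, a gene of low level, was 10.2-fold higher. Cd40lg, at under 2 CPM in each library, was 8.46-fold higher by its mean CPM. In such bulk samples fewer cells of a type and less RNA per cell cannot be told apart. Of the same 6 members, 1 passed (Cxcr5) without EAF2Faslpr replicate 1, EAF2Faslpr replicate 4, Faslpr replicate 1 or Faslpr replicate 4. Without one of the other 4 libraries 2 or 3 of the 6 passed.

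**Figure D1:**
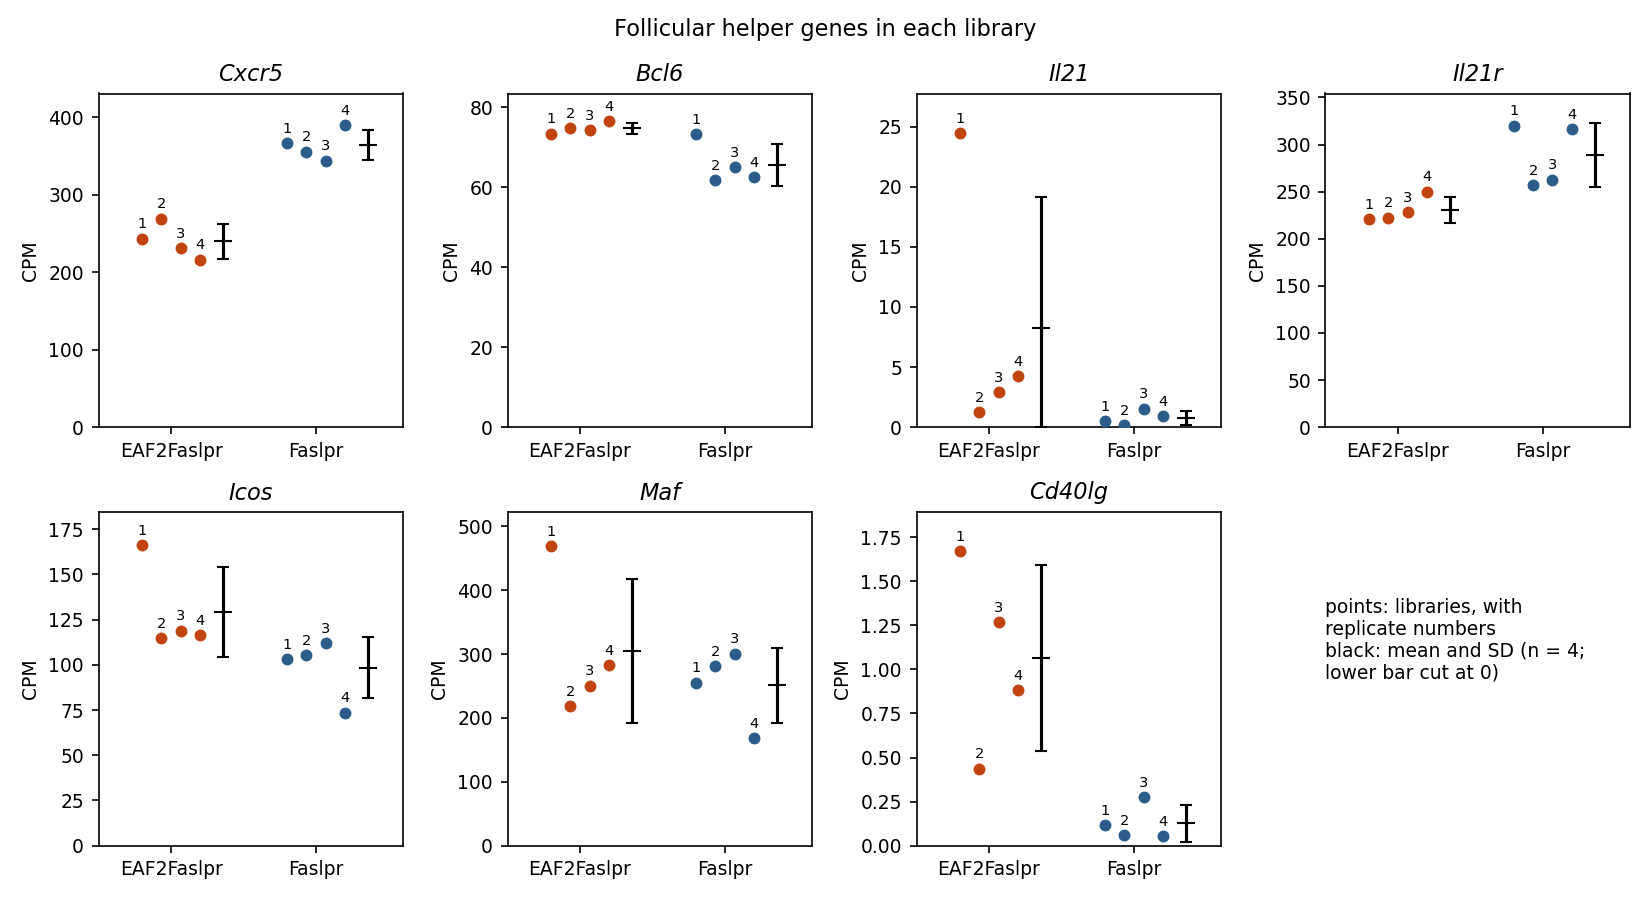
Level of each of the 7 members in CPM (vertical axes, starting at 0) in the 4 EAF2Faslpr libraries (left) and the 4 Faslpr libraries (right), with replicate numbers, and the mean and SD in black. The groups overlap only for Il21 and Maf among the 7 members, and 1 EAF2Faslpr library is far above the rest for Il21.

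Cxcr5 had 243.2, 268.7, 230.8 and 216.2 CPM in EAF2Faslpr replicates 1 to 4, against 366.1, 355.2, 343.8 and 389.9 CPM in Faslpr replicates 1 to 4. Every EAF2Faslpr library lay below every Faslpr library. The log2 fold change was −0.60 (SE 0.08, adjusted p = 0.00114), and Cxcr5 passed in all 8 fits without 1 library, with log2 fold changes between −0.66 and −0.56. B cells also express Cxcr5, and B cell markers summed to 381.7 to 739.8 CPM in EAF2Faslpr libraries, against 102.5 to 173.3 CPM in Faslpr libraries. Their part in the Cxcr5 result was not tested.

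CCR7 holds T cells in the T cell zone and is lowered as CXCR5 comes up in follicular helper cells. Ccr7 was measured at 42.7 ± 5.83 CPM in EAF2Faslpr and 28.5 ± 6.79 CPM in Faslpr libraries (SD, n = 4 each; log2 fold change 0.58, adjusted p = 0.0415). It lost its call in 6 of the 8 fits that left out 1 library (adjusted p up to 0.116), all except those without EAF2Faslpr replicate 4 or Faslpr replicate 3. The log2 ratio of Cxcr5 to Ccr7 CPM was 2.57, 2.60, 2.22 and 2.60 in EAF2Faslpr replicates 1 to 4, against 4.09, 3.65, 3.19 and 3.88 in Faslpr replicates 1 to 4. The groups did not overlap, with a mean of 2.496 ± 0.185 in EAF2Faslpr and 3.701 ± 0.387 in Faslpr libraries (SD, n = 4 each). The exact two-sided permutation test of this difference, −1.21, gave p = 0.0286, the smallest that 70 orderings allow. Without EAF2Faslpr replicate 3 the exact permutation p was 0.0571.

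Bcl6 encodes the zinc finger repressor that defines the lineage. Its level was the steadiest of the members within EAF2Faslpr cells, with 73.4, 74.8, 74.4 and 76.5 CPM in replicates 1 to 4, against 73.3, 61.7, 65.0 and 62.6 CPM in Faslpr replicates 1 to 4. The groups did not overlap, by a margin of under 1 CPM between EAF2Faslpr replicate 1 and Faslpr replicate 1, beside 9.71% of all genes that stood apart in this direction. The log2 fold change was 0.19 (SE 0.07) with a 95% interval of 0.05 to 0.33, and Bcl6 did not pass (adjusted p = 0.127). Bcl6 lies on chromosome 16, as Eaf2 does.

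BCL6 is known to bind its own gene and repress it, and STAT proteins bind sites of the same spacing. The letters TTCNNNGAA, which leave room for either, were searched on both strands in the 300 bases around the annotated starts (250 bases before and 50 after), together with TGANTCA for AP-1 and TGCTGA, the core letters of MAF response elements. Windows from RefSeq on GRCm38.p6 were found for 3 of the 7 members, Bcl6 with 2 windows and Il21 and Il21r with 1 each. The Bcl6 window shown is that of the more downstream start, on the minus strand at chr16:23981234-23981533, because it holds 3 TTCNNNGAA matches (in capitals).
Bcl6: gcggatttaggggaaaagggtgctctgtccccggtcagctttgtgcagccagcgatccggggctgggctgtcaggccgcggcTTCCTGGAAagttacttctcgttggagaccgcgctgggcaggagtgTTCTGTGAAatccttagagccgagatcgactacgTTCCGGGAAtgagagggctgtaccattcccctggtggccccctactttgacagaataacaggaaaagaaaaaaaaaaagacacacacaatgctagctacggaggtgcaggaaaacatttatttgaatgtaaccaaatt
The matches read TTCCTGGAA, TTCTGTGAA and TTCCGGGAA and begin 168, 122 and 88 bases before that start. The other Bcl6 window holds 1 match, TTCTCAGAA, 118 bases before its start. Of 32851 promoter windows of the same length, 8.3% hold TTCNNNGAA at least once. No match of the 3 motifs overlapped another, and a match is a description of letters, not a bound site.

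PRDM1 (BLIMP1) and BCL6 repress each other's genes. Prdm1 was at 8.16 ± 2.95 CPM in EAF2Faslpr and 10.4 ± 1.61 CPM in Faslpr libraries (SD, n = 4 each) and did not pass (adjusted p = 0.382). Without EAF2Faslpr replicate 1 its log2 fold change was −0.63 (adjusted p = 0.0355). The log2 ratio of Bcl6 to Prdm1 was 2.55, 3.41, 3.62 and 3.45 in EAF2Faslpr replicates 1 to 4, against 3.04, 2.71, 2.37 and 2.56 in Faslpr replicates 1 to 4. EAF2Faslpr replicate 1 lay within the range of the Faslpr libraries and the other 3 lay above it. The exact two-sided permutation test of the mean difference, 0.59, gave p = 0.114.

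Maf, the transcription factor of Il21 and Il4 in helper cells, had 468.6, 218.3, 250.5 and 282.1 CPM in EAF2Faslpr replicates 1 to 4, against 255.4, 281.0, 300.5 and 167.8 CPM in Faslpr replicates 1 to 4. The groups overlapped, with EAF2Faslpr replicate 1 above and Faslpr replicate 4 below all others. The log2 fold change of 0.28 (SE 0.24, adjusted p = 0.537) was −0.0047 without EAF2Faslpr replicate 1.

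Il21, the cytokine through which follicular helper cells drive germinal centre B cells, rose but had few reads. Estimated reads numbered 381.15, 23.19, 53 and 77.16 in EAF2Faslpr replicates 1 to 4, against 9.09, 3.04, 28.17 and 17.42 in Faslpr replicates 1 to 4. These were 24.5, 1.26, 2.92 and 4.25 CPM in EAF2Faslpr cells, against 0.516, 0.179, 1.54 and 0.915 CPM in Faslpr cells. EAF2Faslpr replicate 1 was 5.76-fold above the next library of its group, and the lowest EAF2Faslpr library lay below the highest Faslpr library. The log2 fold change was 3.35 (SE 0.93) and the adjusted p 0.0404. Without EAF2Faslpr replicate 1 the log2 fold change was 1.81 (adjusted p = 0.0818), and Il21 also lost its call without EAF2Faslpr replicate 4 or Faslpr replicates 1, 2 or 4 (adjusted p up to 0.111). By limma-voom it did not pass (adjusted p = 0.157).

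Il21r, the receptor of this cytokine on T and B cells, had 220.7, 222.6, 228.5 and 249.98 CPM in EAF2Faslpr replicates 1 to 4, against 319.9, 256.7, 262.8 and 316.1 CPM in Faslpr replicates 1 to 4. Every EAF2Faslpr library lay below every Faslpr library. The log2 fold change was −0.33 (SE 0.09, adjusted p = 0.0405). The call was lost in 6 of the 8 fits without 1 library (adjusted p up to 0.106), all except those without Faslpr replicates 2 or 3, while the log2 fold change stayed between −0.38 and −0.27. The ligand gene was thus higher and the receptor gene lower in the same comparison.

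The promoter windows of this ligand and receptor pair are shown because both genes passed, in opposite directions. The Il21 window lies on the minus strand at chr3:37232587-37232886 and the Il21r window on the plus strand at chr7:125603179-125603478, both on GRCm38.p6. Capitals mark TGCTGA, the only match of the 3 motifs in the Il21 window, which begins 234 bases before the start.
Il21: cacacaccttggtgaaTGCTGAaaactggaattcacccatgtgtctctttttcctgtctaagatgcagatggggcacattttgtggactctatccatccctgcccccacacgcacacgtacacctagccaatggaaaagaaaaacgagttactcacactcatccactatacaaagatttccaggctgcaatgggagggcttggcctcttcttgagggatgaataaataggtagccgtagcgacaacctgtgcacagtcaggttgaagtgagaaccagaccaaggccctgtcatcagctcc
Il21r: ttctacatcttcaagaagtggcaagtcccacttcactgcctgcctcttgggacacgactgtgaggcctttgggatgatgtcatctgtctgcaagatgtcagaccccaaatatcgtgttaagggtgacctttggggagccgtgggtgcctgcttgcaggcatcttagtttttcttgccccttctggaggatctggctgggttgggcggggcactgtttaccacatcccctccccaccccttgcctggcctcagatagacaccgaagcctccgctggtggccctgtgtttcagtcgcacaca
The Il21r window holds none of the 3 motifs. Among all windows 19.5% hold TGCTGA and 7.81% hold TGANTCA, which none of the 4 member windows holds.

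Icos, the costimulatory receptor that sustains follicular helper cells, had 166.2, 114.8, 118.8 and 116.2 CPM in EAF2Faslpr replicates 1 to 4, against 103.1, 105.3, 111.8 and 73.5 CPM in Faslpr replicates 1 to 4. Every EAF2Faslpr library lay above every Faslpr library, but 3 of them by little. The log2 fold change was 0.39 (SE 0.15) and Icos did not pass (adjusted p = 0.139). It was 0.24 without EAF2Faslpr replicate 1 and 0.27 without Faslpr replicate 4.

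Cd40lg encodes the ligand by which helper T cells activate B cells through CD40. It gave 26, 8, 22.98 and 16 estimated reads in EAF2Faslpr replicates 1 to 4, against 2, 1, 5 and 1 in Faslpr replicates 1 to 4. In CPM these were 1.67, 0.437, 1.27 and 0.883 in EAF2Faslpr cells, against 0.115, 0.0596, 0.275 and 0.0538 in Faslpr cells. Every EAF2Faslpr library lay above every Faslpr library, and 3 of the Faslpr libraries were under 3 reads. Pooled over libraries, 72.98 reads in EAF2Faslpr against 9 in Faslpr cells gave a ratio per read of 8.21, with an exact 95% interval of 4.1 to 18.7 that covers counting error only. The exact two-sided permutation test of CPM gave p = 0.0286, the smallest possible, and 0.0571 where any 1 of the 4 Faslpr libraries was left out. Where the filter on low counts was dropped, edgeR gave a log2 fold change of 2.98 (adjusted p = 0.00715) and DESeq2 3.06 (adjusted p = 8e-04). By limma on log2(FPKM + 0.1) it was 2.25 (adjusted p = 0.00757), on a scale that understates changes of low genes. In 5 of the 8 edgeR fits without 1 library Cd40lg passed the filter, and in those 5 it also passed the test. Only EAF2Faslpr libraries, the group where it was higher, held enough reads for that filter. Passing in those 5 fits is therefore no separate support.

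The members differed in how they varied within a group. Il21, Icos, Maf and Cd40lg were each highest in replicate 1 among the EAF2Faslpr libraries and in replicate 3 among the Faslpr libraries. In EAF2Faslpr cells the same 4 genes were lowest in replicate 2. Some margins were small. Faslpr replicate 3 lay 1.06-fold above the next library for Icos and 1.07-fold for Maf, and gave 5 Cd40lg reads against 2, 1 and 1. Icos was lowest at 114.8 CPM, against 116.2 CPM in EAF2Faslpr replicate 4. The coefficients of variation of these 4 genes within EAF2Faslpr cells were 133% for Il21, 49.6% for Cd40lg, 36.8% for Maf and 19.3% for Icos. Counting error adds to that of Cd40lg, at 8 to 26 reads. Cxcr5 (9.28%), Il21r (5.84%) and Bcl6 (1.72%) varied less and did not peak in those libraries. Cd4, the coreceptor of helper T cells, was highest in the same 2 libraries. It had 138.0, 63.5, 85.5 and 106.5 CPM in EAF2Faslpr replicates 1 to 4, against 33.2, 26.5, 56.8 and 28.7 CPM in Faslpr replicates 1 to 4, and rose 2.71-fold (adjusted p = 0.00771). Cd8a and Cd8b1, of the other coreceptor, rose 3.66-fold and 2.04-fold (adjusted p = 0.00456 and 0.00503). IL-21 and CD40 ligand are known mainly as products of CD4 T cells, and the part of a change in cell composition in the Il21 and Cd40lg results was not tested.

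**Figure D2:**
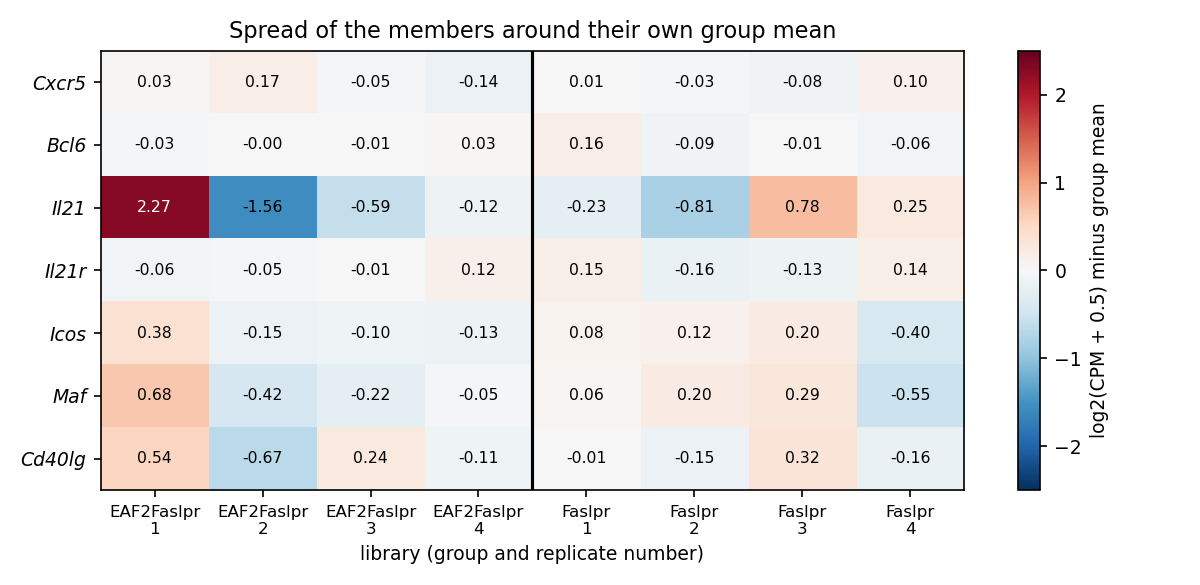
Deviation of each member from its own group mean in each library, as log2(CPM + 0.5) (colour and printed value; rows are members, columns libraries). Il21, Icos, Maf and Cd40lg are all above their mean in EAF2Faslpr replicate 1 and Faslpr replicate 3.

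Per gene length, in the authors' FPKM, the members spanned about the same order in both groups. In EAF2Faslpr cells Il21r (101 ± 5.6 FPKM), Cxcr5 (92.9 ± 8.57) and Maf (85.1 ± 31.1) led, and the range of each overlapped that of the next. Icos (40.3 ± 7.68 FPKM) and Bcl6 (21.3 ± 0.434) followed, each apart from its neighbours. Il21 (2.71 ± 3.57 FPKM) and Cd40lg (0.888 ± 0.443) came last and overlapped (SD, n = 4 throughout). In Faslpr cells Cxcr5 stood first, at 140 ± 7.4 FPKM, with a range that overlapped that of Il21r at 128 ± 14 FPKM. Below them came Maf (69.6 ± 16.3 FPKM), Icos (30.5 ± 5.32) and Bcl6 (18.7 ± 1.35), each apart from its neighbours. Il21 (0.263 ± 0.194 FPKM) and Cd40lg (0.103 ± 0.0877) again closed the order and overlapped.

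**Figure D3:**
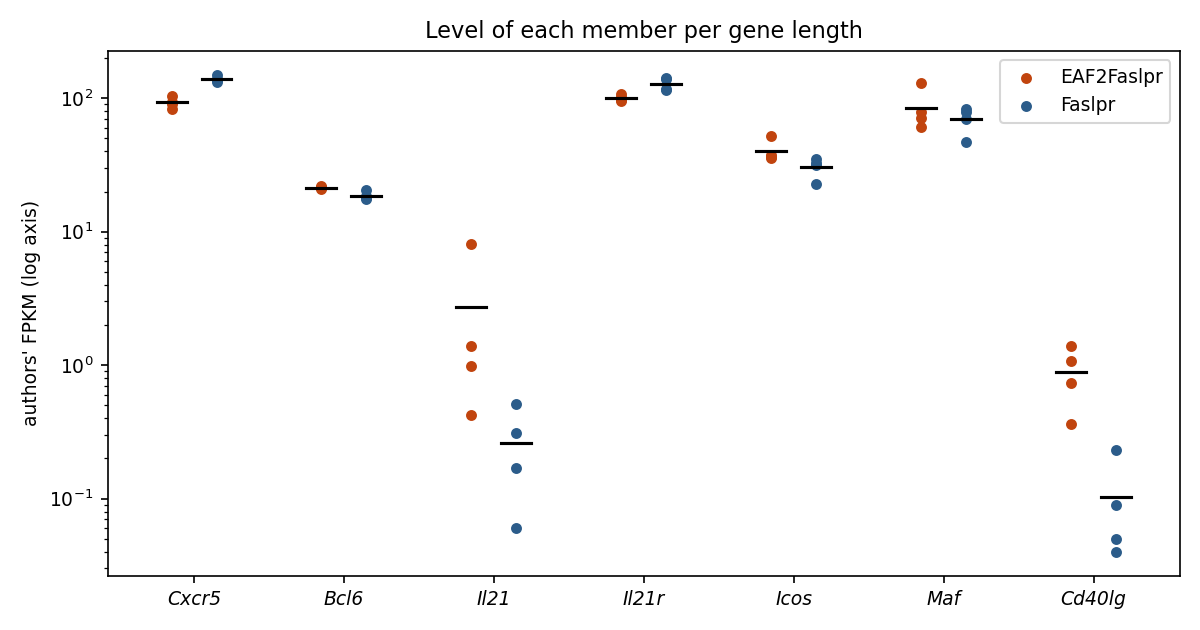
Level of each member in the authors' FPKM on a log axis, in EAF2Faslpr (red) and Faslpr (blue) libraries, with group means as black bars. Cxcr5, Il21r and Maf lie between 60.8 and 130.43 FPKM in EAF2Faslpr libraries, and Il21 and Cd40lg below 10 in every library.

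Among 11 transcription factors that promote the programme, 1 rose and none fell, beside 7.14% of all genes higher and 4.96% lower. The count that rose is thus near the share over all genes. The median log2 fold change was 0.23, beside −0.01 over all genes tested. The one that rose was Tox2, a factor that opens chromatin at follicular helper genes. It had 26.7, 3.71, 4.19 and 6.95 CPM in EAF2Faslpr replicates 1 to 4, against 1.43, 0.894, 2.37 and 1.18 CPM in Faslpr replicates 1 to 4 (log2 fold change 2.80, SE 0.65, adjusted p = 0.0192). The groups did not overlap, beside 9.71% of all genes that stood apart in this direction. Tox2, as Il21, peaked in EAF2Faslpr replicate 1 and Faslpr replicate 3. Without EAF2Faslpr replicate 1 its log2 fold change was 1.75, and it lost its call without Faslpr replicate 1, 2 or 4 (adjusted p up to 0.0641). The AP-1 factor Batf was at 17.96 ± 7.18 CPM in EAF2Faslpr and 10.3 ± 1.06 CPM in Faslpr cells (adjusted p = 0.0532, and 0.0303 without EAF2Faslpr replicate 2). Tcf7, which encodes TCF1, an inducer of Bcl6, was at 931.9 ± 62 CPM in EAF2Faslpr and 793.8 ± 98.5 CPM in Faslpr cells (adjusted p = 0.164), and Stat3, which carries IL-21 and IL-6 signals, had an adjusted p of 0.119.

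Of 9 factors that restrain the programme, 2 rose and none fell (median log2 fold change 0.10), beside 7.14% of all genes higher and 4.96% lower. Id2, an inhibitor of E proteins that opposes the follicular helper fate, rose 2.33-fold (52.5 ± 17.1 CPM in EAF2Faslpr and 22.5 ± 4.43 CPM in Faslpr libraries, SD, n = 4 each, adjusted p = 0.0057). It passed in each of the 8 fits without 1 library. Stat5b, which carries the IL-2 signal, rose 1.24-fold (adjusted p = 0.0307). It lost its call in 6 of those 8 fits (adjusted p up to 0.0898), all except those without EAF2Faslpr replicate 3 or Faslpr replicate 3.

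Surface molecules and adaptors of follicular helper cells were measured for 12 genes, of which 4 rose and 1 fell (median log2 fold change 0.17). Over all genes 7.14% were higher and 4.96% lower. Btla, an inhibitory receptor, rose 2.37-fold (203.7 ± 23.1 CPM in EAF2Faslpr and 86.0 ± 10.2 CPM in Faslpr libraries, SD, n = 4 each, adjusted p = 8.21e-05). Cd200 rose 1.52-fold (adjusted p = 0.00114). P2rx7, the receptor for extracellular ATP that limits these cells in mice, rose 3.35-fold (2.89 ± 1.1 CPM in EAF2Faslpr and 0.854 ± 0.18 CPM in Faslpr cells, adjusted p = 0.00575). Tnfrsf4 (OX40) rose 1.64-fold but lost its call in 6 of the 8 fits without 1 library (adjusted p up to 0.0795), all except those without EAF2Faslpr replicate 2 or Faslpr replicate 4. Pdcd1, the gene of PD-1, which marks follicular helper cells together with CXCR5, fell 1.502-fold (118.9 ± 7.88 CPM in EAF2Faslpr and 178.6 ± 14.4 CPM in Faslpr cells, adjusted p = 0.00125). Slamf6, the most abundant, did not pass (609.4 ± 49.6 CPM in EAF2Faslpr and 544.0 ± 68.8 CPM in Faslpr cells).

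Of 8 receptors and ligands that place T cells in the spleen, 2 fell beside Cxcr5, and Ccr7 rose (median log2 fold change −0.01). Over all genes 4.96% were lower and 7.14% higher. Gpr183 (EBI2), a receptor for oxysterols that guides cells to the edge of the follicle, fell 1.73-fold (395.2 ± 54.9 CPM in EAF2Faslpr and 684.9 ± 72.6 CPM in Faslpr libraries, SD, n = 4 each, adjusted p = 0.00141). S1pr1, the receptor that lets T cells leave lymphoid tissue, fell 1.44-fold (adjusted p = 0.00714). Groups did not overlap for either gene, beside 7.96% of all genes that stood apart in this direction. Both genes passed in each of the 8 fits without 1 library.

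Of 7 partners of IL-21 signalling, 2 rose and none fell (median log2 fold change 0.26), beside 7.14% of all genes higher and 4.96% lower. Socs3, a feedback inhibitor of STAT3 signals, rose 8.13-fold. It had 49.3, 15.7, 26.2 and 19.7 CPM in EAF2Faslpr replicates 1 to 4, against 2.52, 1.85, 5.78 and 3.39 CPM in Faslpr replicates 1 to 4 (adjusted p = 0.0014). The groups did not overlap, beside 9.71% of all genes that stood apart in this direction. The libraries with the most Socs3 in each group were those with the most Il21. Jak3, the kinase of the common gamma chain, rose 2.34-fold (350.6 ± 69.6 CPM in EAF2Faslpr and 149.6 ± 67.7 CPM in Faslpr libraries, SD, n = 4 each, adjusted p = 0.0189), and lost its call without Faslpr replicate 1 (adjusted p = 0.0515). Il2rg, the common gamma chain itself, had an adjusted p of 0.0593, and of 0.016 without Faslpr replicate 4. Jak1 did not pass (adjusted p = 0.654).

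The table held 6 of 7 helper cytokine genes, of which 2 were tested and neither passed by edgeR, DESeq2 or limma-voom (0 at an unadjusted p under 0.05). Over all genes 12.1% passed by edgeR, so 0 of 2 does not set these genes apart. Il10 was at 15.4 ± 12.2 CPM in EAF2Faslpr and 13.02 ± 3.24 CPM in Faslpr cells, with 33.7 CPM in EAF2Faslpr replicate 1. Its log2 fold change of 0.24 was −0.48 without that library. Ifng was at 25.5 ± 9.89 CPM in EAF2Faslpr and 31.3 ± 7.61 CPM in Faslpr cells. Il4, the other cytokine that defines follicular helper cells, gave at most 0.13 CPM in any library.

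Of 6 partners of the members on other cells, 3 rose and none fell (median log2 fold change 1.05), beside 7.14% of all genes higher and 4.96% lower. Icosl, the ligand of ICOS, rose 5.17-fold (14.4 ± 6.12 CPM in EAF2Faslpr and 2.78 ± 1.47 CPM in Faslpr libraries, SD, n = 4 each, adjusted p = 0.00286). Cd40, the receptor of CD40 ligand, rose 5.30-fold (adjusted p = 0.00133), and Cd86 3.39-fold (adjusted p = 0.00501). These are genes of B cells and other presenting cells, and Icosl and Cd40 peaked in EAF2Faslpr replicate 3 at 23.5 and 7.83 CPM. Cd86 had 9 estimated reads in Faslpr replicate 1, short of the filter on low counts. Its EAF2Faslpr libraries, the group where it was higher, had 40 to 63 reads. That filter thus favours Cd86 among the 3 of 6 that rose. Of 14 B cell markers 14 rose, with a median of 2.06 on the log2 scale and a summed level of 381.7 to 739.8 CPM in EAF2Faslpr libraries, against 102.5 to 173.3 CPM in Faslpr libraries. None was at 0. Pax5, the B lineage factor, rose 5.82-fold, Cd22 4.003-fold and Blk 4.32-fold. Spib rose 1.64-fold and lost its call in 6 of the 8 fits without 1 library, all except those without EAF2Faslpr replicate 1 or Faslpr replicate 4 (adjusted p up to 0.101). The part of B cell transcripts in the changes of Icosl, Cd40 and Cd86 was not tested.

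T cell markers of the sort were present throughout, with a summed level of 5317 to 5457 CPM in EAF2Faslpr libraries, against 4825 to 5113 CPM in Faslpr libraries. Of 9 tested 1 rose, Cd2 (2.07-fold), beside 7.14% of all genes, and Cd3e differed by −0.11 on the log2 scale (adjusted p = 0.462). No germinal centre B cell marker of 4 tested passed by edgeR (1 at an unadjusted p under 0.05, 1 by DESeq2 and 0 by limma-voom). Over all genes 12.1% passed by edgeR, so 0 of 4 does not set these genes apart. The 1 at an unadjusted p under 0.05 was Mef2b. It had 6 estimated reads in Faslpr replicate 1, short of the filter on low counts, and 26.61 to 40.36 in EAF2Faslpr libraries. That filter thus favours it. The markers summed to 97.2 to 108.4 CPM in EAF2Faslpr libraries, against 86.2 to 105.7 CPM in Faslpr libraries. Most of that sum was Fas (mean 64.2 CPM in EAF2Faslpr and 54.3 CPM in Faslpr libraries) and S1pr2 (33.5 and 36.6 CPM). S1pr2 is also among the receptors listed as placing T cells, so the sum is no measure of germinal centre B cells. Fas had an adjusted p of 0.276, and of 0.0415 without Faslpr replicate 4. Of 6 antibody-secreting cell markers Xbp1 fell 1.40-fold and none rose, beside 4.96% of all genes lower and 7.14% higher. The markers summed to 686.8 to 846.2 CPM in EAF2Faslpr libraries, against 856.7 to 975.6 CPM in Faslpr libraries. Most of that sum was Sdc1 (mean 364.7 CPM in EAF2Faslpr and 439.1 CPM in Faslpr libraries) and Xbp1 (207.5 and 290.2 CPM). Which cells gave these transcripts was not tested, so the sum is no measure of antibody-secreting cells. Macrophage markers rose in 2 of 10, Cybb (2.74-fold) and Lyz2, beside 7.14% of all genes, and no macrophage marker fell. Lyz2 reached 75.1 CPM in EAF2Faslpr replicate 3 and lost its call without Faslpr replicate 1, 2 or 4 (adjusted p up to 0.112). The macrophage markers summed to 81.0 to 184.4 CPM in EAF2Faslpr libraries, against 68.7 to 89.5 CPM in Faslpr libraries. By edgeR 0 of 4 neutrophil and 0 of 3 dendritic cell markers passed, as by DESeq2, limma-voom and limma on FPKM. An unadjusted p under 0.05 was reached by 3 and 0, with no share over all genes beside these counts. Over all genes 12.1% passed by edgeR, so 0 of 4 or 0 of 3 does not set these lists apart. S100a8 and S100a9, among those 3, had 6 estimated reads each in Faslpr replicate 1, short of the filter on low counts. In EAF2Faslpr libraries they had 12 to 452 and 13 to 486, so that filter favours them. Neutrophil markers summed to 13.7 to 83.6 CPM in EAF2Faslpr libraries, against 12.8 to 17.4 CPM in Faslpr libraries, and dendritic cell markers to 21.5 to 40.6 CPM in EAF2Faslpr libraries, against 28.0 to 48.7 CPM in Faslpr libraries. Macrophages also express Maf, and of these 10 markers Mertk (25.3 CPM), C1qa (3.15 CPM), C1qb (2.76 CPM) and C1qc (2.44 CPM) were highest in EAF2Faslpr replicate 1, as Maf was. Csf1r, Adgre1, Lyz2, Cd14 and Cybb were highest in EAF2Faslpr replicate 3 and Cd68 in Faslpr replicate 4. The part of macrophage transcripts in the Maf values was not tested. Of the Y-linked genes, Eif2s3y was at 15.6 to 23.2 CPM in EAF2Faslpr libraries, against 17.2 to 20.6 CPM in Faslpr libraries, and Uty at 4.08 to 4.58 CPM in EAF2Faslpr libraries, against 3.99 to 4.81 CPM in Faslpr libraries. Ddx3y, not tested, gave at most 0.11 CPM in EAF2Faslpr libraries and 0.179 CPM in Faslpr libraries. Of the 5 sex-linked genes listed, 3 were in the table. Reads of near-identical genes cannot be told apart here and Ddx3y was near 0, so these levels are no measure of sex.

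Genes with a pattern close to each member were ranked by the root-mean-square difference of centred log2(CPM + 1) values over the 8 libraries, among genes averaging at least 5 CPM. Closest to Il21 was Tox2 (0.285), followed by Dcdc2a (0.529) and the chemokine gene Ccl5 (0.561), which peaked in EAF2Faslpr replicate 1 at 71.4 CPM. Ccl5 passed (adjusted p = 0.0356) but not without EAF2Faslpr replicates 1 or 3 or Faslpr replicates 1 or 2 (adjusted p up to 0.106). Closest to Cxcr5 were Nat8f4 (0.075), Srp68 (0.0857) and Alg2 (0.0858), which fell, with adjusted p of 0.00282, 0.000311 and 0.000815. Bcl6 was closest to Glyr1 (0.0189) and to Il10ra (0.0332), the IL-10 receptor chain. Icos was closest to Clic4 (0.0873), Il21r to Zfp85 (0.0747) and Maf to Efhc2 (0.132). The measure takes the size of a change into account, so that genes which vary little lie close to other steady genes. It also holds the difference between the groups. The direction and adjusted p of genes close to a member thus follow in part from how they were picked, and are no separate support.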

How the data were processed

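RNA was measured in 8 libraries of B220+CD3+ spleen cells, 4 labelled EAF2Faslpr and 4 labelled Faslpr, grouped and numbered by their titles. The deposited table gave estimated counts (expected counts of the RSEM type, unscaled) and the authors' FPKM for 17384 genes. The deposited TPM values and the authors' normalised counts (a signal scaled per library by an unstated method), 16 columns in all, were not used. Per the submitters' processing notes, HISAT2 2.2.1, Bowtie2 2.4.5, RSEM 1.3.1 and build GRCm39 were used, with no roles stated. The sources used here give neither annotation nor strand setting, so reads of overlapping, antisense or near-identical genes cannot be told apart. A share of 36.8% of the deposited estimated counts lay within 0.001 of a whole number.

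Estimated counts were rounded, filtered with filterByExpr (12340 genes tested) and scaled by TMM. Groups were compared by edgeR 4.0.16 (R 4.3.3), quasi-likelihood F test, without covariates, and p-values were Benjamini-Hochberg adjusted over the 12340 genes, with a threshold of 0.05. Every adjusted p given comes from that edgeR fit unless another tool or setting is named. Fits that left out libraries had their own filter and adjustment. Standard errors (SE) are the absolute log2 fold change over the root of F. Ranges of ± 1.96 SE take no account of the small number of libraries, and are thus narrower than 95% intervals. CPM is counts scaled to the TMM-adjusted total of tested genes, as edgeR defines it. Cd40lg did not pass the filter and was compared on its CPM by exact permutation, two-sided, as were the Bcl6 to Prdm1 and Cxcr5 to Ccr7 ratios. These tests ran over 70 orderings and cannot give p below 0.0286. Procedures were tested on simulated data.

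The members and gene lists were chosen with earlier results of these data known. Named genes were Eaf2, Fas, the 7 members, the 3 genes of smallest p and the most abundant gene of each list, and the 3 genes closest in pattern to each tested member. P2rx7, Tnfrsf4, Cd4, Cd8a, Cd8b1, Tcf7, Stat3, Cd3e, Lef1, Tox and Egr2 were named after their values were seen. So were list members given only at or near 0 reads. Some genes the rule took are given only among the flagged values or in counts. Alternatives were RLE factors, library totals, no filter, DESeq2 1.42.0, limma-voom (limma 3.58.1), limma on log2(FPKM + 0.1) for genes averaging at least 0.1 FPKM, a replicate block, and leaving out each library or both replicates numbered 4. Promoter windows came from RefSeq on GRCm38.p6, matched by symbol, and chromosomes from the gene table of that assembly. One gene of the positioning list is counted there but not reported here.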

Additional observations from a re-analysis of the deposited data

Results flagged for a closer look

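Among 200 sets of 4 values examined (genes, list sums and ratios in each group), 24 single libraries stood apart from the other 3 of their group by a gap above 0.829 of the range. Chance passes that limit in about 1 of 20 independent sets, but these sets are not independent, so the 24 cannot be set against it. Tox2, Dcdc2a and Ccl5 were the genes closest to Il21 in pattern and so share its high library. The sums and ratios also hold genes that were examined singly. EAF2Faslpr replicate 1 stood apart for Il21 (24.5 CPM, others 1.26 to 4.25), Icos (166.2 CPM, others 114.8 to 118.8) and the summed members (1198 CPM, others 900.7 to 946.2). It also stood apart for Tox2 (26.7 CPM), Stat5a (113.3 CPM), Btla (237.9 CPM), Il10 (33.7 CPM), Prdm1 (12.5 CPM), Dcdc2a (49.4 CPM) and Ccl5 (71.4 CPM).

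EAF2Faslpr replicate 3 stood apart for the log2 ratio of Cxcr5 to Ccr7 (2.22, others 2.57 to 2.60), for Cd40 (7.83 CPM), Icosl (23.5 CPM) and Pax5 (48.3 CPM), and for the summed B cell markers (739.8 CPM, others 381.7 to 415.6). The same library stood apart for Lyz2 (75.1 CPM), S100a8 (24.9 CPM), S100a9 (26.8 CPM), Csf3r (13.1 CPM) and the summed neutrophil markers (83.6 CPM, others 13.7 to 16.5). EAF2Faslpr replicate 4 stood apart for Glyr1 (209.4 CPM) and the summed promoting factors (3562 CPM), Faslpr replicate 3 for Lyz2 (5.94 CPM) and Faslpr replicate 4 for Tnfrsf4 (6.99 CPM).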

How the results depend on the processing

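Cxcr5 kept its call and direction under every alternative run. Il21 did not pass by limma-voom (log2 fold change 2.71), by limma on FPKM (2.33) or without both replicates numbered 4 (3.64), and ranged from 1.81 to 3.89 without 1 library. Without both replicates numbered 4, Il21r (−0.32) and Cd40lg (2.91, exact permutation p = 0.1, the smallest that 3 against 3 allows) lost their calls, and 1 member passed. Without 1 library Il21r ranged from −0.38 to −0.27, Cd40lg from 2.78 to 3.81, Maf from −0.0047 to 0.41, the ratio of Cxcr5 to Ccr7 from −1.38 to −1.08, the members passing from 1 to 4 (1 to 3 of the 6 tested with all libraries, since Cd40lg entered 5 of these fits) and all genes passing from 990 (without Faslpr replicate 2) to 1599. That ratio was −1.21 with a replicate block (exact p = 0.125, the smallest of 4 pairs) and −1.18 without both replicates numbered 4. Promoting factors passing were 2 by DESeq2, 0 by limma-voom and 0 without both replicates numbered 4 (0 to 2 without 1 library). Restraining factors were 1 with the replicate block and 1 without both replicates numbered 4 (1 to 2). Germinal centre B cell markers were 1 without the filter, by DESeq2 and without both replicates numbered 4 (0 to 2), and antibody-secreting cell markers 2 by DESeq2 (1 to 2). Macrophage markers were 1 by DESeq2, limma-voom, limma on FPKM and without both replicates numbered 4 (1 to 2). T cell markers were 2 by DESeq2 and 3 without both replicates numbered 4 (1 to 3), IL-21 partners ranged from 1 to 3 and neutrophil markers from 0 to 2. Without EAF2Faslpr replicate 1, Maf (−0.0047), Il10 (−0.48) and Eea1 (−0.043) changed sign, as did Il10 by limma-voom (−0.021), while without other libraries Il10 reached 0.44 and Eea1 0.24. Counts for lists are over the genes that each fit's own filter let in. The cause of these shifts was not tested. Same-numbered libraries did not deviate together throughout (correlations across genes 0.231, 0.239, 0.0257 and −0.0972), and with the replicate block 3 members passed. Depth limits Cd40lg and Il21, with 1 to 26 and 3.04 to 381.15 reads per library.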
